A study of Mus musculus with 8 samples.

Results

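The genes described here encode the ADAM proteins, the related ADAMTS proteins and the ADAMTS-like proteins (ADAMTSL). They were taken from the deposited expression table by gene symbol alone, and 48 of the 18262 listed genes belong to them, with 24 ADAM, 19 ADAMTS and 5 ADAMTSL genes. Expression was measured by RNA sequencing of whole colon tissue from mice labelled WT in genotype. The DSS group holds 4 libraries of mice with colitis caused by DSS, dextran sulfate sodium, which damages the gut lining. The DSS + GAA group holds 4 libraries of mice that had DSS and also ganoderic acid A (GAA), a triterpenoid of Ganoderma fungi, at 20 mg/kg; the treatment labels of its replicates 1, 2, 4 and 5 read 20, 21, 22 and 23 mg/kg, and the titles give 20 for all. Both groups carry DSS, and colon without colitis was not analysed here. Strain, sex, age, the DSS schedule and whether each library is a separate animal are not given in the sources used here, and the spread between samples behind each p-value may therefore be technical.

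ADAM proteins are membrane-anchored proteins with a metalloprotease domain and a disintegrin domain, and those with an active protease cut the outer part of other membrane proteins off the cell surface, which is called shedding. Growth factors of the EGF family, tumour necrosis factor and several cytokine receptors are released in this way. ADAMTS proteins are secreted, carry thrombospondin repeats and cut molecules of the extracellular matrix, such as the proteoglycans versican and aggrecan and the ends of procollagens. ADAMTSL proteins resemble the ADAMTS proteins but have no protease domain. In the colon, ADAM10 and ADAM17 are known for their part in epithelial Notch and EGF receptor signalling and repair, and ADAMTS proteins for remodelling of the stroma.

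Values are TPM, a transcript abundance that is scaled by transcript length and by library, so levels can be set side by side between genes; sequencing depth is unknown. A gene was tested when it reached 1 TPM in at least 4 of the 8 libraries, and the comparison used limma on log2(TPM + 1), a scale on which changes of weakly expressed genes come out too small, with p-values adjusted over all 14217 genes tested. An adjusted p under 0.05 counts as a pass. The colon markers Car1, Muc2, Slc26a3, Cdx2, Hoxb13 and Hoxd13 were all above 0 in every library. Male germ cell markers, which bear on the many testis ADAMs, summed to at most 4.95 TPM in any library over the 3 of 7 that the table lists. The balance of calls depended on how libraries were scaled. On TPM as deposited, all tested genes had a median log2 fold change of -0.25, and lower genes made up 82.5% of the calls. Under trimmed mean scaling, quantile normalization and median centring the median was 0.00, 0.02 and 0.05, and lower genes made up 46.6%, 48.8% and 37.7% of the calls.

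Of the 48 genes, 29 passed the filter on low values. Among these 29, 14 were lower in DSS + GAA colon, 0 were higher and 15 did not pass (limma, adjusted p under 0.05); 2 of the 29 were higher at an unadjusted p under 0.05. The lower genes were 5 of 12 tested ADAM genes, 7 of 12 tested ADAMTS genes and 2 of 5 ADAMTSL genes. Over all tested genes, 28.2% were lower and 5.96% were higher, against 41.7% lower of the ADAM, 58.3% of the ADAMTS and 40.0% of the ADAMTSL genes tested. The median log2 fold change was -0.48 for ADAM, -1.18 for ADAMTS and -0.67 for ADAMTSL. All 4 DSS + GAA libraries lay below all 4 DSS libraries for 13 of the 29 genes (44.8%, with 27.6% over all tested genes) and above them for 0 of the 29 (5.31% over all tested genes). The filter let no member pass without a DSS + GAA library at 1 TPM. The mean of DSS + GAA was under 1 TPM for 2 of the 29, Adamts12 and Adamts14, which were not called lower. The lower genes Adamts2, Adamts5, Adamts6, Adamtsl1 and Adamtsl2 reached 1 TPM in all 4 DSS libraries but not in all 4 DSS + GAA libraries. The filter can thus favour genes that are high in DSS, so the counts over tested genes are a description. Under the other 3 scalings the ADAM split changed to 3 lower and 2 higher and the ADAMTSL split to 1 lower and 1 higher, while 7, 7 and 6 ADAMTS genes were lower and 0 higher. Over all tested genes, 11.6% were lower and 13.3% higher under trimmed mean scaling, 11.3% and 11.8% under quantile normalization, and 9.2% and 15.2% under median centring.

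**Figure D1:**
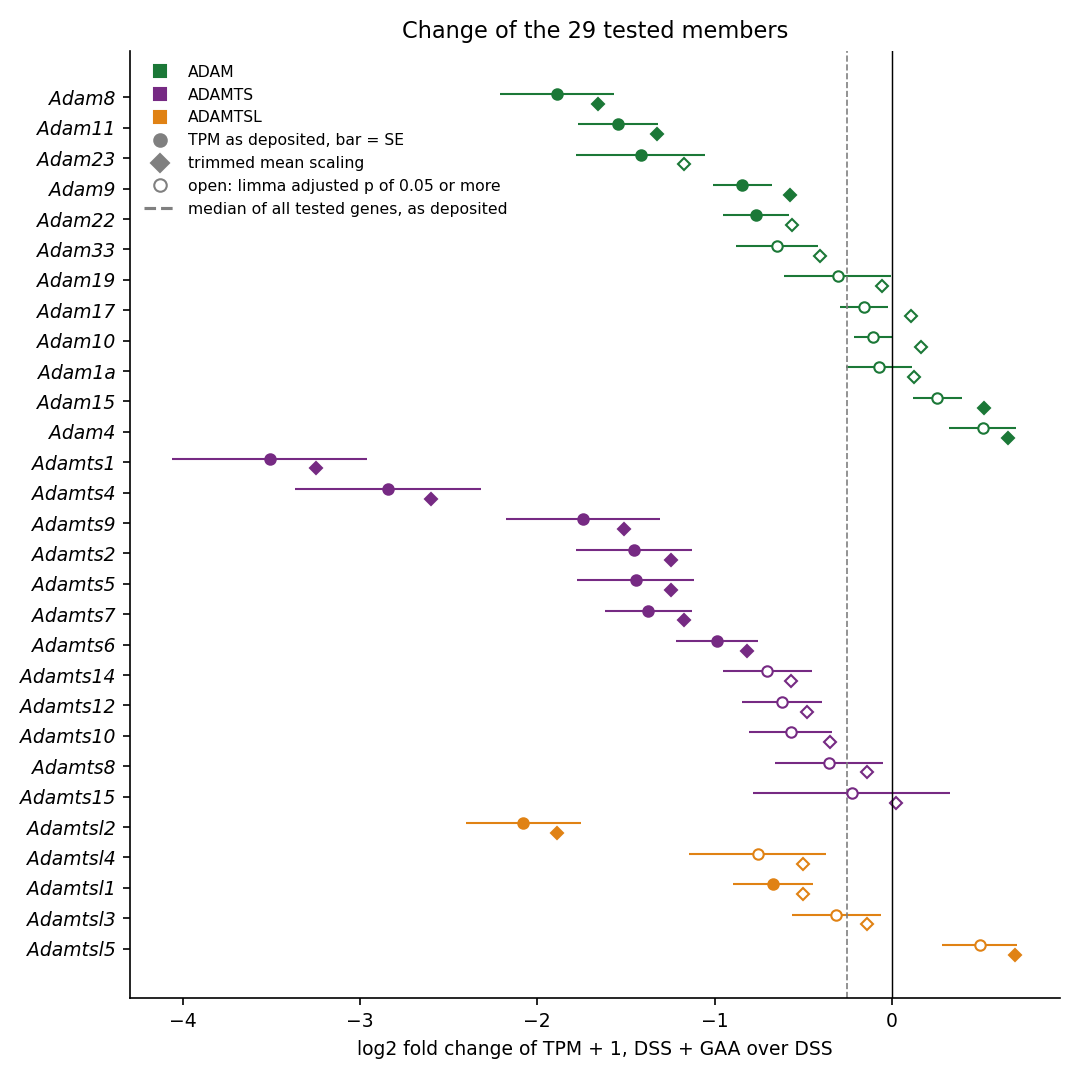
Log2 fold change of TPM + 1, DSS + GAA over DSS, for the 29 tested genes, with circles for TPM as deposited (bars are standard errors from limma) and diamonds for trimmed mean scaling; filled symbols passed at an adjusted p under 0.05, and the dashed line is the median of all tested genes, -0.25. Adamts1, Adamts4 and Adamtsl2 lie farthest to the left, at -3.51, -2.84 and -2.08, while Adam10 and Adam17 lie near 0.

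The authors' deposited table, whose test the sources used here do not state, gave partly other calls. At a false discovery rate under 0.05 it calls 8 of 24 ADAM genes lower and 2 higher, 11 of 19 ADAMTS genes lower and 0 higher, and 1 of 5 ADAMTSL genes lower and 1 higher. Over the whole deposited table it calls 16.2% of genes lower and 10.3% higher. Adam9 was the most abundant gene on which the sources differed, with a false discovery rate of 0.156 in the authors' deposited table and a limma adjusted p of 0.00820.

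Adam10, Adam9 and Adam17 were the most abundant ADAM genes, and together they made up 76.6% to 83.5% of the summed ADAM TPM of each library. Adam10 encodes the main sheddase of Notch and E-cadherin. Its level was 154, 130.1, 155 and 135 TPM in DSS replicates 1, 2, 4 and 5 and 142, 126, 137 and 128 TPM in the same-numbered DSS + GAA replicates. The groups overlapped, and the means were 144 ± 13.1 and 133 ± 7.68 TPM (SD, n = 4 per group here and below). The log2 fold change was -0.11 ± 0.11 (standard error; limma adjusted p = 0.482), and it turned positive under trimmed mean scaling (0.17) and median centring (0.20) without passing.

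Adam17 encodes the enzyme that releases tumour necrosis factor and several EGF receptor ligands. It measured 42.1, 31.2, 40.0 and 33.1 TPM in DSS and 35.9, 33.9, 33.1 and 27.8 TPM in DSS + GAA, again with overlapping groups. The log2 fold change of -0.16 ± 0.14 did not pass (limma adjusted p = 0.399), and its sign turned under each of the 3 other scalings (0.06 to 0.15), where it did not pass either. The ratio of Adam17 to Adam10 TPM within a library, which a single factor per library cannot change, was 0.254 ± 0.0145 in DSS and 0.245 ± 0.0218 in DSS + GAA. The exons of Adam17 share 311 bases with Iah1 on the other strand, and since strand is not stated, reads there cannot be assigned.

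Adam9, which encodes a widely expressed membrane protease, differed from these genes. Its level was 186, 131, 149 and 114 TPM in DSS and 95.5, 77.5, 75.6 and 70.4 TPM in DSS + GAA. Every DSS library lay above every DSS + GAA library, with DSS replicate 1 the highest of all. The mean fell from 145 ± 30.8 to 79.7 ± 10.9 TPM (log2 fold change -0.84 ± 0.17, limma adjusted p = 0.00820). Against Adam10 in the same library, the Adam9 level was 1.01 ± 0.150 in DSS and 0.597 ± 0.0570 in DSS + GAA, and the ranges did not overlap. Adam9 lies on chromosome 8 (24949611 to 25016927, minus strand, GRCm38), 807 bases from Adam32.

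Several partners and substrates of ADAM10 and ADAM17 were lower as well. The list holds 43 genes, 18 that act on these proteases and 25 that encode proteins they cut. Of 38 tested, 19 were lower and 2 higher, beside 28.2% and 5.96% over all tested genes. The median change was -0.66 on the log2 scale beside -0.25 over the whole table tested. The list was counted only on TPM as deposited, where most calls over all genes were lower. Among the regulators 8 of 16 tested were lower and 0 higher (limma; 1 was higher at an unadjusted p under 0.05). The 8 pool genes of opposite action, since Timp1 (-2.56), Timp2 (-1.37) and Reck (-1.40), named for this reason, encode inhibitors of metalloproteases. Rhbdf1 and Rhbdf2 encode the iRhom proteins that carry ADAM17 to the cell surface. Rhbdf2 fell from 16.9 ± 4.33 to 8.29 ± 0.322 TPM (-0.92 ± 0.17, limma adjusted p = 0.00746) and Rhbdf1 from 15.3 ± 1.66 to 8.83 ± 1.33 TPM (-0.74 ± 0.14, limma adjusted p = 0.00789). Tspan5, a tetraspanin that partners ADAM10, fell from 7.71 ± 1.03 to 3.45 ± 0.530 TPM (-0.97 ± 0.16, limma adjusted p = 0.00554). Tspan15, a more abundant tetraspanin of the list, was the regulator higher at an unadjusted p under 0.05 (limma). It stood at 53.8 ± 4.29 and 72.0 ± 13.1 TPM without passing (0.40 ± 0.15, limma adjusted p = 0.0608). Of the other tetraspanins tested, Tspan17 was lower (-0.64, limma adjusted p = 0.0379), and Tspan14 (0.05) and Tspan33 (-0.63) did not pass. These are named after their values were seen. Among the substrates 11 of 22 tested were lower and 2 higher. The 2 higher, Cx3cl1 (log2 fold change 0.97) and Cdh1 (0.51), are named as the exceptions. Epgn, an EGF family ligand, fell from 9.74 ± 3.56 to 0.958 ± 0.759 TPM (-2.48 ± 0.30, limma adjusted p = 0.00460), and Il1r2, the decoy receptor of interleukin 1, from 75.7 ± 42.6 to 7.05 ± 6.05 TPM (-3.37 ± 0.56, limma adjusted p = 0.00585). These are RNA levels and say nothing of how much protein was cut.

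Adam8, an ADAM of myeloid cells, had the largest fall on the log2(TPM + 1) scale among the 12 tested ADAM genes. It measured 21.0, 17.02, 11.4 and 8.91 TPM in DSS and 4.89, 4.07, 1.84 and 2.04 TPM in DSS + GAA. The lowest DSS library was above the highest DSS + GAA library. The mean fell from 14.6 ± 5.47 to 3.21 ± 1.51 TPM, a ratio of 4.54 (log2 fold change -1.89 ± 0.32, limma adjusted p = 0.00601). Fewer cells of a type and less RNA per cell cannot be told apart in whole tissue, here and in the results below. Of 7 neutrophil markers, 5 were lower and 0 higher, beside 28.2% and 5.96% over all tested genes. Their summed level ran from 4493 to 10850 TPM in the DSS libraries and from 1277 to 4032 TPM in the others. Of 7 macrophage markers 1 was lower and 0 higher, with sums of 455 to 544 TPM and 157 to 617 TPM. No marker of either list was at 0 in any library. Without Ly6g, which did not pass and has the highest mean of the list, the other 6 neutrophil markers summed to between 2052 and 6383 TPM in DSS and to between 136 and 373 TPM in DSS + GAA. DSS replicate 5, the lowest of its group in Adam8, was also the lowest in Cxcr2, Retnlg and Mmp9 and the highest in S100a8, S100a9 and Ly6g. The part of these cells in the Adam8 result was not tested. Adam28, the lymphocyte ADAM, was too low to be tested (DSS range 0.212 to 0.880 TPM, DSS + GAA range 0 to 0.0730 TPM).

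All 3 ADAM genes classed here as neural and without protease activity were lower. They serve as ligands and receptors at synapses, and Adam22 and Adam23 encode receptors of the LGI proteins. Adam11 measured 8.39, 8.79, 6.51 and 9.22 TPM in DSS and 3.70, 2.19, 1.42 and 1.68 TPM in DSS + GAA, with no overlap (log2 fold change -1.54 ± 0.23, limma adjusted p = 0.00513). Adam23 measured 21.3, 18.2, 15.5 and 14.5 TPM in DSS. In DSS + GAA it measured 12.6, 7.58, 2.77 and 3.91 TPM, so replicate 1 came nearest to the DSS range (-1.42 ± 0.36, limma adjusted p = 0.0180). Adam22 was the least abundant, with 4.75, 3.96, 3.58 and 4.17 TPM in DSS and 3.03, 1.96, 1.49 and 1.73 TPM in DSS + GAA (-0.77 ± 0.18, limma adjusted p = 0.0146). Without DSS replicate 1, Adam23 and Adam22 no longer passed (limma adjusted p = 0.0632 and 0.0545), nor did they under any of the 3 other scalings (0.0554 to 0.0582 and 0.0593 to 0.128). All 6 enteric neuron markers were lower too, beside 28.2% of all tested genes. Their sum was between 266 and 382 TPM in DSS and between 61.3 and 174 TPM in DSS + GAA. Of 5 enteric glia markers 3 were lower (135 to 170 and 125 to 143 TPM), and no neuron or glia marker was at 0. Erbb3, which did not pass, made up most of the glia sum, and the other 4 glia markers summed to between 34.1 and 67.8 TPM in DSS and to between 11.4 and 35.3 TPM in DSS + GAA. Their part in the result was not tested.

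Of Adam12, Adam15, Adam19 and Adam33, which are known from mesenchymal, muscle or endothelial cells, Adam12 was too low to be tested and the others did not pass. Adam33 is known from airway smooth muscle and fibroblasts. It measured 11.6, 7.78, 8.45 and 11.1 TPM in DSS and 8.78, 6.30, 4.95 and 3.93 TPM in DSS + GAA (-0.65 ± 0.23, limma adjusted p = 0.0561). Without DSS + GAA replicate 1 it passed (limma adjusted p = 0.0101). Adam19, known from heart development, measured 14.3, 10.5, 13.4 and 12.99 TPM in DSS. In DSS + GAA it spread from 19.03 and 12.01 TPM in replicates 1 and 2 to 6.72 and 6.54 TPM in replicates 4 and 5, on both sides of the DSS range (-0.31 ± 0.30, limma adjusted p = 0.453). Adam15 measured 18.6, 17.2, 24.8 and 18.1 TPM in DSS and 20.8, 23.6, 24.0 and 25.7 TPM in DSS + GAA. The log2 fold change was 0.26 ± 0.14 (not passed, limma adjusted p = 0.180), but it was called higher under trimmed mean scaling (0.52, limma adjusted p = 0.0192), quantile normalization (0.0221) and median centring (0.0166). Adam15 shares 1263 exon bases with an antisense gene, 4731419I09Rik. Adam12 ranged from 0.468 to 2.09 TPM in DSS and from 0.169 to 0.609 TPM in DSS + GAA.

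Of the 12 ADAM genes known mainly from testis and epididymis, 10 were untested, with a highest value of 0.868 TPM in any library (Adam32). Adam1a (-0.07 ± 0.19, limma adjusted p = 0.790) and Adam4 (0.51 ± 0.19, limma adjusted p = 0.0619) were tested. Adam1a had means of 2.61 ± 0.762 and 2.38 ± 0.173 TPM. Adam4 had means of 0.866 ± 0.146 and 1.71 ± 0.608 TPM and was called higher under each of the 3 other scalings (limma adjusted p = 0.0161 to 0.0327) and with DSS + GAA replicate 1 left out (0.00935). Adam4 is also called higher in the authors' deposited table (false discovery rate 0.000820). In the annotation, Adam1a shares 1805 exon bases with Mapkapk5 and 4779 with Gm42878 on the same strand, so its value is uncertain.

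**Figure D2:**
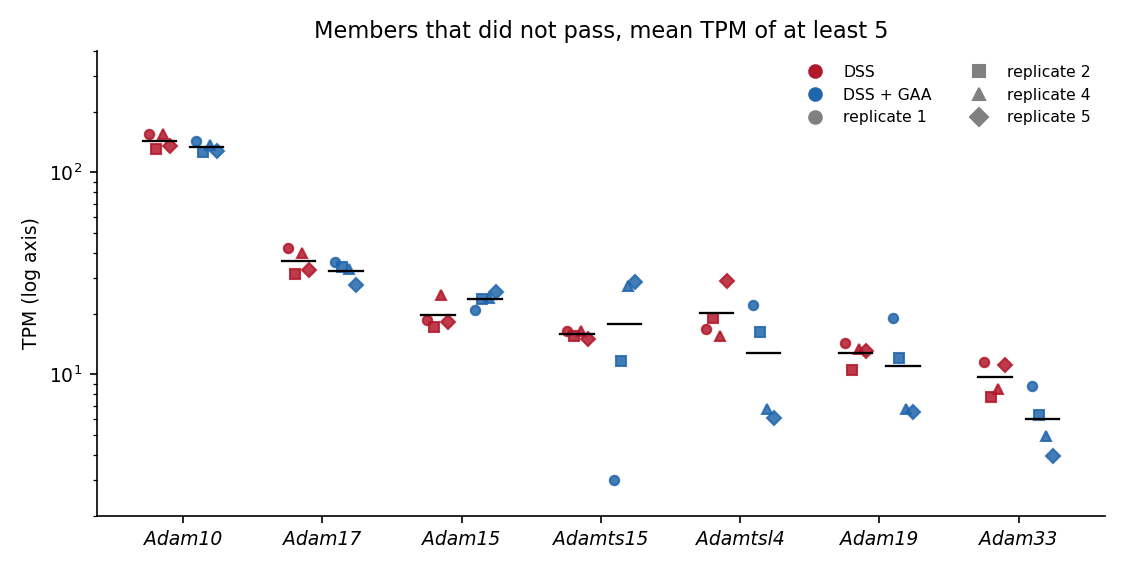
TPM on a log axis in each library for the 7 tested genes that did not pass and had a mean of at least 5 TPM, with red for DSS, blue for DSS + GAA, a marker shape for each replicate number and a bar for each group mean. The groups overlap for every gene shown, and Adamts15 has its 4 DSS libraries between 15.0 and 16.4 TPM and its DSS + GAA libraries between 2.99 and 28.7 TPM.

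Among the ADAMTS genes, the proteoglycan-cutting enzymes held both the highest levels and the largest falls. Adamts1, which encodes a versican- and aggrecan-cutting protease, was the most abundant ADAMTS gene of the DSS group. It measured 317, 219, 124 and 61.2 TPM in DSS replicates 1, 2, 4 and 5. In DSS + GAA it measured 26.6, 14.2, 5.46 and 10.9 TPM. The groups did not overlap, although the DSS libraries alone spread over a range wider than the gap to the other group. The mean fell from 180.4 ± 112 to 14.3 ± 8.94 TPM, a ratio of 12.6 (log2 fold change -3.51 ± 0.55, limma adjusted p = 0.00533). Adamts1 lies on chromosome 16 (85793827 to 85803113, minus strand, GRCm38), 53060 bases from Adamts5, which has the same orientation.

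The 250 bases before the annotated start of 4 genes are shown, because Adamts1 and Adamtsl2 had the largest falls among members with a promoter in the RefSeq table (GRCm38.p6), Adam8 had the largest among the tested ADAM genes, and Adam10 did not pass. They read from 5′ to 3′ on the strand of the gene, and capitals mark TATAAA, known as the TATA box, and GGGCGG, known as the GC box, searched on both strands.
Adamts1, chr16:85803114-85803363, minus strand: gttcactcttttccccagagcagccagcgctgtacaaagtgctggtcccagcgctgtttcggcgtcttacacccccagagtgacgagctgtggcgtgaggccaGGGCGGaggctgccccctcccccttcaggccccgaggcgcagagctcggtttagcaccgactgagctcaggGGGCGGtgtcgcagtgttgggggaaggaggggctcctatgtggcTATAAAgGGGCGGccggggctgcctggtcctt
Adamtsl2, chr2:27079129-27079378, plus strand: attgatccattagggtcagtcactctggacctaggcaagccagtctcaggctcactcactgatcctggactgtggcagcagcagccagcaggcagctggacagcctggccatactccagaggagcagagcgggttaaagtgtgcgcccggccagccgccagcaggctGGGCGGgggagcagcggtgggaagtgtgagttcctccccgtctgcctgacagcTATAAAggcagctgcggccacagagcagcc
Adam8, chr7:139992563-139992812, minus strand: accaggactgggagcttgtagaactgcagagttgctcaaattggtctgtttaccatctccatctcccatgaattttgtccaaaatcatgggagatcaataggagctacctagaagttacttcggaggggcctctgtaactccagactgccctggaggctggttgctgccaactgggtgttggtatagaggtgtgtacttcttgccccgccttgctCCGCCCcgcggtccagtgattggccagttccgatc
Adam10, chr9:70678732-70678981, plus strand: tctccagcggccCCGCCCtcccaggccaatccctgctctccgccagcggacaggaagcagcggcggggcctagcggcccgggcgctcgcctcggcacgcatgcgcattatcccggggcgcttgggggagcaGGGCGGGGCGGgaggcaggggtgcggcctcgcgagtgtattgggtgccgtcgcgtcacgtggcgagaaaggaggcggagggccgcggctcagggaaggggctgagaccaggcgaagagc

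A TATAAA lies 32 bases before the start in Adamts1 and 30 bases before it in Adamtsl2, and neither Adam8 nor Adam10 holds one in this window. In Adamts1 the TATAAA is followed by 1 of its 3 GC boxes after a single base. Adam10 has 3 GC boxes, 2 of which share letters, and Adam8 has 1 on the opposite strand. TATAAA occurs in 12.4% and GGGCGG in 32.7% of all 32851 windows of that length in the table. RefSeq windows matched 25 of the 48 genes (27 windows), and TATAAA was in 2 of the 7 windows of genes that fell and in 0 of the 12 of tested genes that did not pass. The AP-1 site TGANTCA was in 0 of the 7 and 1 of the 12 (6.75% of all windows), and the nuclear receptor half-site AGGTCA in 1 of the 7 and 2 of the 12 (4607 of all windows). These are matches of letters and not shown to be sites in use.

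Adamts4, which encodes the enzyme called aggrecanase 1, followed the same pattern at a lower level. It measured 75.3, 38.7, 35.3 and 14.6 TPM in DSS and 9.57, 5.30, 2.44 and 1.85 TPM in DSS + GAA, without overlap. The mean fell by a ratio of 8.55 (41.0 ± 25.2 to 4.79 ± 3.53 TPM; log2 fold change -2.84 ± 0.52, limma adjusted p = 0.00692). Adamts9, known for versican cleavage in development, measured 24.5, 16.3, 11.4 and 6.30 TPM in DSS and 6.64, 4.08, 2.05 and 1.703 TPM in DSS + GAA. Here DSS + GAA replicate 1 lay above DSS replicate 5, so the groups overlapped (-1.74 ± 0.43, limma adjusted p = 0.0163). Without DSS replicate 1 the call was lost (limma adjusted p = 0.0547). Adamts9 shares 1381 exon bases with A730049H05Rik on the other strand.

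Adamts5 encodes aggrecanase 2, the enzyme known best from cartilage breakdown. It measured 9.45, 6.005, 4.80 and 3.66 TPM in DSS and 3.10, 1.68, 0.710 and 0.915 TPM in DSS + GAA, without overlap (-1.45 ± 0.33, limma adjusted p = 0.0123). The remaining proteoglycanases did not pass. Adamts15 showed an even level in DSS (16.4, 15.4, 16.4 and 15.0 TPM) and a wide spread in DSS + GAA (2.99, 11.6, 27.5 and 28.7 TPM). Its lowest library was DSS + GAA replicate 1, the library in which Adamts1, Adamts4, Adamts5 and Adamts9 were highest within that group. The log2 fold change of Adamts15 was -0.23 ± 0.56 (limma adjusted p = 0.775), it was 0.39 without that library, and its sign also turned under the 3 other scalings (0.02 to 0.08) without passing. Adamts8 (-0.36 ± 0.30, limma adjusted p = 0.388), which lies 20110 bases from Adamts15 on chromosome 9 with the opposite orientation, ranged from 2.29 to 5.20 TPM in DSS and from 1.96 to 5.40 TPM in the DSS + GAA group. Adamts20 was untested, at most 0.374 TPM.

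Of the 3 procollagen N-propeptidases, which trim the amino-terminal ends of fibrillar procollagens, 1 passed. Adamts2 measured 10.7, 6.005, 6.28 and 4.81 TPM in DSS and 3.67, 2.35, 1.03 and 0.934 TPM in DSS + GAA, without overlap (-1.46 ± 0.33, limma adjusted p = 0.0117). Adamts14 did not pass (1.64 ± 0.690 and 0.626 ± 0.453 TPM, -0.70 ± 0.25, limma adjusted p = 0.0568) and did so without DSS replicate 4 (0.0408). Adamts3 was untested, with a DSS range of 0.887 to 1.69 TPM and a DSS + GAA range of 0.136 to 0.548 TPM.

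Adamts7, which cuts cartilage oligomeric matrix protein (COMP), measured 9.71, 4.48, 5.10 and 4.00 TPM in DSS and 1.88, 1.66, 1.36 and 1.19 TPM in DSS + GAA. The DSS + GAA libraries were close to each other and all below the DSS libraries (-1.37 ± 0.25, limma adjusted p = 0.00655). Adamts12, the other COMP-cutting enzyme, did not pass (1.499 ± 0.559 and 0.636 ± 0.418 TPM, -0.62 ± 0.23, limma adjusted p = 0.0615) and did so without DSS replicate 5 (0.0491). Adamts6, a partner of fibrillin microfibrils, measured 3.94, 2.77, 2.40 and 2.43 TPM in DSS and 1.90, 0.920, 0.711 and 0.485 TPM in DSS + GAA. Its groups did not overlap (-0.99 ± 0.23, limma adjusted p = 0.0133), but it missed the threshold without DSS replicate 1 (0.0503) and under median centring (0.0580). The related Adamts10 did not pass (5.41 ± 1.05 and 3.41 ± 1.27 TPM, -0.57 ± 0.23, limma adjusted p = 0.0872) and did so without DSS + GAA replicate 1 (0.0252). Adamts13, the von Willebrand factor protease, and Adamts16, Adamts17, Adamts18 and Adamts19 were untested, with a highest value of 1.48 TPM (Adamts19, DSS replicate 5).

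**Figure D3:**
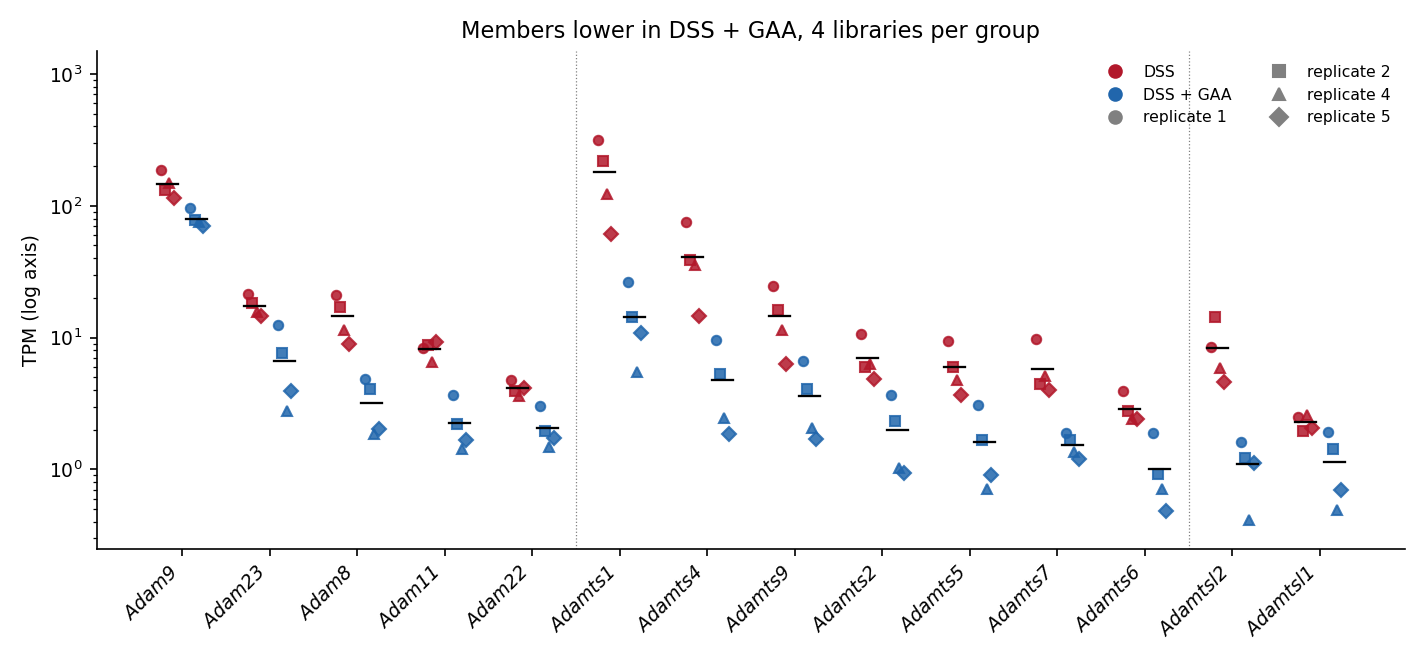
TPM on a log axis in each library for the 14 genes lower in DSS + GAA, in the order ADAM, ADAMTS, ADAMTSL, with red for DSS, blue for DSS + GAA, a marker shape for each replicate number and a bar for each group mean. Every DSS library is above every DSS + GAA library except for Adamts9, and the DSS values of Adamts1 run from 61.2 to 317 TPM.

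The ADAMTSL genes did not move as a block. Adamtsl2, whose protein binds fibrillin and latent TGF-beta binding protein, had the third largest fall of the 29 genes. It measured 8.46, 14.4, 5.85 and 4.59 TPM in DSS and 1.62, 1.23, 0.417 and 1.11 TPM in DSS + GAA, without overlap. The mean fell from 8.33 ± 4.37 to 1.097 ± 0.503 TPM, a ratio of 7.60 (log2 fold change -2.08 ± 0.32, limma adjusted p = 0.00531). Adamtsl1 passed narrowly, with 2.51, 1.95, 2.61 and 2.05 TPM in DSS and 1.92, 1.42, 0.489 and 0.700 TPM in DSS + GAA (-0.67 ± 0.23, limma adjusted p = 0.0462). It lost the call in 13 of 17 alternatives (limma adjusted p up to 0.279), among them the removal of any 1 library other than DSS + GAA replicate 1.

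Adamtsl4, which also binds fibrillin, was the most abundant of these genes and did not pass. It measured 16.8, 19.04, 15.5 and 28.99 TPM in DSS and 22.1, 16.2, 6.72 and 6.11 TPM in DSS + GAA (-0.76 ± 0.39, limma adjusted p = 0.155), and it passed without DSS + GAA replicate 1 (0.0296). Adamtsl3 (1.90 ± 0.544 and 1.395 ± 0.818 TPM, -0.31 ± 0.25, limma adjusted p = 0.356) and Adamtsl5 (0.50 ± 0.21, limma adjusted p = 0.0995) did not pass. Adamtsl5 stood at 2.29 ± 0.588 and 3.69 ± 1.17 TPM and was called higher under trimmed mean scaling (limma adjusted p = 0.0441), quantile normalization (0.0219) and median centring (0.0297).

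Set side by side, the summed ADAMTS level differed between the groups by more than the summed ADAM level. Over all 24 ADAM genes the sum was 491, 381, 435 and 369 TPM in DSS and 352, 300.2, 294 and 277 TPM in DSS + GAA. Over all 19 ADAMTS genes it was 487, 322, 220.0 and 128 TPM in DSS and 71.2, 52.3, 46.6 and 52.9 TPM in DSS + GAA. The ADAMTSL sum overlapped between the groups (34.9 ± 5.01 and 20.1 ± 9.31 TPM). The log2 ratio of the ADAMTS sum to the ADAM sum, which a single factor per library cannot change although quantile normalization can, was -0.01, -0.24, -0.98 and -1.52 in DSS and -2.31, -2.52, -2.66 and -2.39 in DSS + GAA. The DSS libraries thus ranged widely among themselves, and all 4 DSS + GAA libraries lay below them (means -0.69 ± 0.69 and -2.47 ± 0.15). This sum rests on few genes, since Adamts1 and Adamts4 together made up 59.0% to 80.7% of the ADAMTS sum in DSS and 16.96% to 50.7% in DSS + GAA. Without Adamts1 the log2 ratio was -2.01 ± 0.39 in DSS and -2.88 ± 0.12 in DSS + GAA, without overlap. Adamts4 was kept in this ratio. With both genes left out the groups overlapped, since DSS + GAA replicate 5 then lay above DSS replicates 4 and 5. Adamts15 made up 3.38% to 11.7% of the ADAMTS sum in DSS and 4.20%, 22.2%, 59.1% and 54.2% in DSS + GAA replicates 1, 2, 4 and 5. These ratios are descriptions and carry no test.

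**Figure D4:**
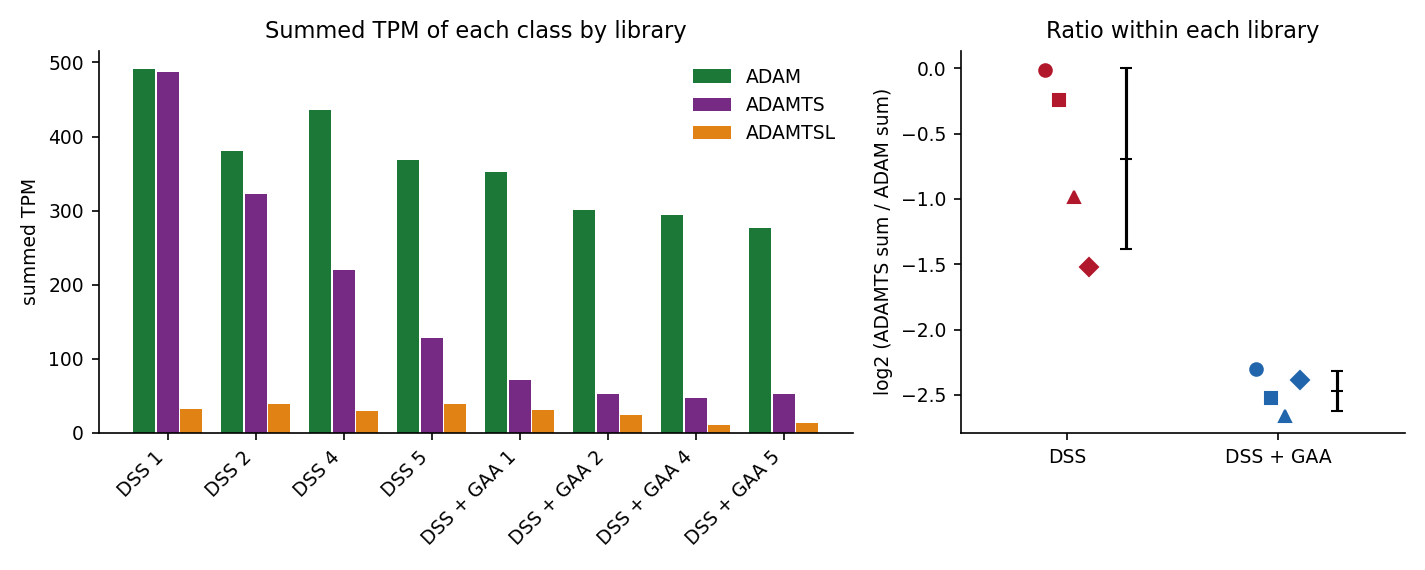
Left, summed TPM of all ADAM, ADAMTS and ADAMTSL genes in each library as bars from 0; right, the log2 ratio of the ADAMTS sum to the ADAM sum in each library, with the group mean and SD (n = 4) in black. The ratio lies between -1.52 and -0.01 in DSS and between -2.66 and -2.31 in DSS + GAA.

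The matrix genes that ADAMTS proteins act on or bind were also lower in part. Of 35 listed genes, 26 were tested, and 12 were lower and 0 higher (limma), beside 28.2% and 5.96% over all tested genes. At an unadjusted p under 0.05 (limma), 19 were lower and 0 higher, and the share over all genes was not counted. The median change was -1.21 on the log2 scale, beside the -0.25 of all tested genes. This list, too, was counted only on TPM as deposited. Versican (Vcan), the substrate shared by most of the proteoglycanases, did not pass (15.2 ± 5.81 and 5.98 ± 5.01 TPM, -1.42 ± 0.50, limma adjusted p = 0.0517); it is named after its value was seen. Among fibrillar procollagens, the substrates of Adamts2, 1 of 5 tested was lower. Of 7 microfibril genes tested 4 were lower, among them Mfap2, a fibrillin-binding glycoprotein gene (5.75 ± 0.641 to 1.67 ± 0.995 TPM, -1.41 ± 0.26, limma adjusted p = 0.00669), and Ltbp3, a latent TGF-beta binding protein gene (17.7 ± 3.50 to 7.15 ± 3.07 TPM, -1.26 ± 0.28, limma adjusted p = 0.0108). The largest changes by test were those of Thbs1, which encodes thrombospondin 1 (471 ± 253 to 43.1 ± 30.8 TPM, -3.46 ± 0.59, limma adjusted p = 0.00611), and Dcn, which encodes the proteoglycan decorin (1789 ± 1032 to 331 ± 181 TPM, -2.44 ± 0.44, limma adjusted p = 0.00655). Fn1, the fibronectin gene, fell from 211 ± 67.4 to 66.9 ± 38.7 TPM (-1.77 ± 0.38, limma adjusted p = 0.0103).

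Fibroblast and endothelial markers were lower in part, beside 28.2% lower and 5.96% higher over all tested genes. Of 9 fibroblast markers 4 were lower and 0 higher, and their sum was 4752, 2291, 2593 and 1659 TPM in DSS and 1452, 901, 426 and 417 TPM in DSS + GAA. These markers share Dcn, Col1a1, Col1a2 and Col3a1 with the list of matrix genes above, and the endothelial markers share Vwf with it, so the lists are not separate. Of 7 endothelial markers 5 were lower (95.0 to 168 and 24.3 to 98.3 TPM). Of 6 smooth muscle markers 0 passed in limma, and 0 had an unadjusted p under 0.05 (1867 to 5155 and 1505 to 3691 TPM). Of 8 epithelial markers 3 were higher and 0 lower, and they summed to between 10270 and 12980 TPM in DSS and to between 15950 and 17250 TPM in DSS + GAA. Of 5 tested T and NK cell markers 4 were higher and 0 lower, with sums that ran from 16.7 to 27.3 TPM and from 41.1 to 99.9 TPM. None of these markers was at 0 in any library. DSS replicate 1 had the highest fibroblast sum and the highest Adamts1, Adamts2, Adamts4, Adamts5, Adamts6, Adamts7 and Adamts9 levels of all libraries. Dcn alone made up most of the DSS sums. Without it the other 8 fibroblast markers summed to between 612 and 1435 TPM in DSS and to between 213 and 877 TPM in DSS + GAA, so the groups overlapped. By this sum DSS + GAA replicate 1 (877 TPM) was above DSS replicate 5 (612 TPM). With all 9 markers their order was the other way (1452 and 1659 TPM). The part of stromal cell content in the ADAMTS results was not tested.

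**Figure D5:**
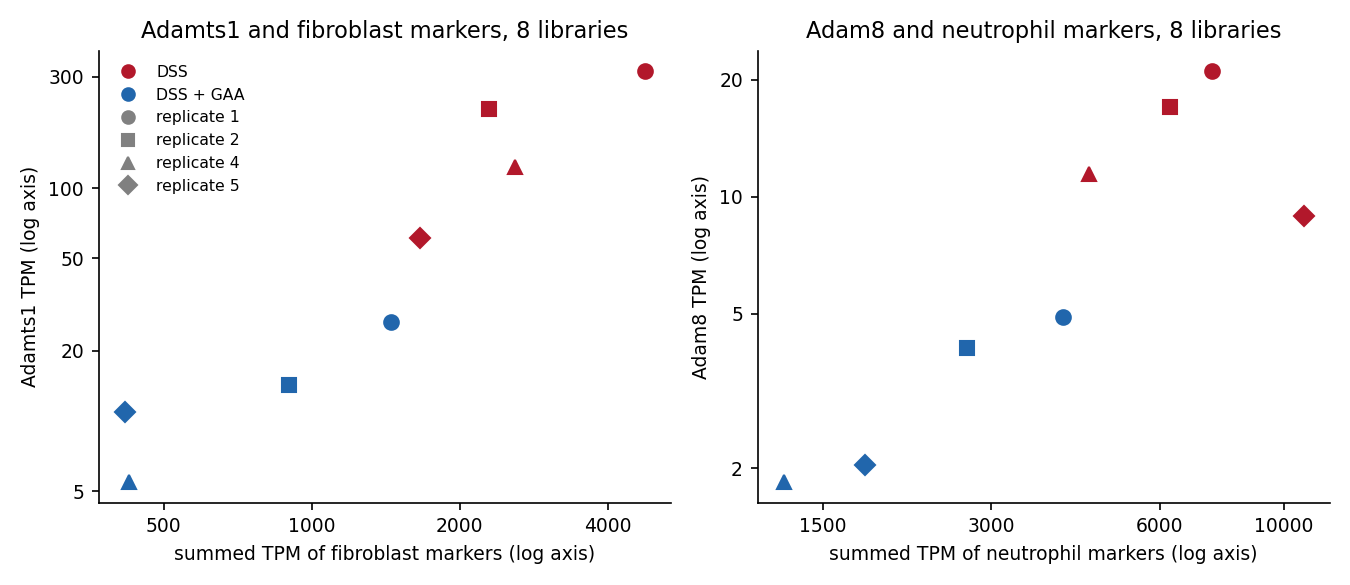
Left, Adamts1 TPM against the summed TPM of 9 fibroblast markers; right, Adam8 TPM against the summed TPM of 7 neutrophil markers; both axes are logarithmic and each point is a library, with red for DSS, blue for DSS + GAA and a shape for each replicate number. The DSS libraries lie above the DSS + GAA libraries on both axes in both panels, but without Dcn the fibroblast sums of the groups overlap. The high neutrophil sum of DSS replicate 5 (10850 TPM) comes mostly from S100a8, S100a9 and Ly6g, and Cxcr2, Retnlg and Mmp9 are the lowest of the DSS group there.

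Genes that were too low to be tested were 19 of the 48, 12 ADAM and 7 ADAMTS genes, and their highest value in any library was 2.09 TPM. With no filter on low values, 8 of 24 ADAM, 10 of 19 ADAMTS and 1 of 5 ADAMTSL genes were lower and 0 of the 48 higher (limma), beside 23.5% lower and 4.5% higher over all 18262 genes. The additional genes were Adam3, Adam28, Adam32, Adamts3, Adamts13 and Adamts20, all under 2 TPM in every library, while Adamtsl1 was lost (adjusted p = 0.0528).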

How the data were processed

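The members were found by gene symbol, and the members, gene lists, markers and tests were chosen with earlier results of these data known. Every library's deposited TPM values, made by the authors, add up to 1000000 over 18262 genes. The submitters' processing notes name Bowtie2, edgeR, featureCounts, GATK, HISAT2, SAMtools, Subread, Trimmomatic and mm10, without versions or roles. The authors' deposited log2 fold changes, p-values and false discovery rates were copied without change; the fold change lay within 0.000247 of the log2 ratio of the group means where both means exceeded 5 TPM. TPM holds no depth, so no count test was run and precision comes from the 4 libraries per group.

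Genes with at least 1 TPM in at least 4 libraries (14217) were compared on log2(TPM + 1) by limma (version 3.58.1; statmod 1.5.0, R 4.3.3). The model held group alone, with a variance trend, robust empirical Bayes, two-sided p-values and Benjamini-Hochberg adjustment. Members that passed, and tested members with a mean of at least 5 TPM, are given by library; from each pathway list the 5 genes with the smallest p are named, other members are given by range or mean, and other names are marked. Trimmed mean scaling brings the typical gene's level to the same value in each library. Coordinates are from GENCODE vM21 (GRCm38), where all 48 members matched; promoters are from RefSeq (GRCm38.p6). In a simulation of this comparison (14064 genes), the fit recovered 74 of 100 genes changed by 1 and 87 of 100 changed by 2 on the log2(TPM + 1) scale and called 5 unchanged genes. The changed genes were drawn only from the more abundant ones and were far fewer than the genes called in the data. The recovery therefore does not describe weakly expressed members. Alternatives were other pseudocounts (0.1 and 5), filters, scalings, empirical Bayes settings, a replicate block and leaving out each library. A filter on a mean of 1 TPM, and marker sums without the marker of the highest mean, were chosen after seeing the data.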

Additional observations from a re-analysis of the deposited data

Results flagged for a closer look

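Adamts8 in DSS replicate 2 stood apart from its group, at 2.29 TPM beside 5.20, 4.83 and 4.98 TPM in DSS replicates 1, 4 and 5; its gap to the nearest library was 0.872 of the range of the group, above Dixon's 95% critical value of 0.829 for 4 samples. It was the only such library among 64 groups of values examined (29 genes and 3 class sums in each of both groups), and chance alone gives about 1 in 20.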

How the results depend on the processing

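ADAMTS falls numbered 7 as reported, 7 under trimmed mean scaling and quantile normalization and 6 under median centring, 9 with a replicate block, 10 with no filter, and 5 to 8 when each library was left out. With the filter at 5 TPM, 3 of 4 tested were lower. ADAM falls numbered 3 under each other scaling (2 higher in each), 8 with no filter, and 3 to 6 with a library left out (0 to 1 higher). ADAMTSL falls numbered 1 with a pseudocount of 0.1, with no filter, under each other scaling (1 higher in each) and with a replicate block, 0 with the filter at 5 TPM, and 1 to 3 with a library left out. Adam8, Adam9, Adam11, Adamts1, Adamts2, Adamts4, Adamts5, Adamts7 and Adamtsl2 kept their calls under every alternative in which they were tested.

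The ADAMTS median was -1.68 and -0.55 with pseudocounts of 0.1 and 5, -0.62 with no filter, -2.29 with the filter at 5 TPM and -0.75 under quantile normalization. The ADAMTSL median was -0.25 with a pseudocount of 5 and -0.24 under quantile normalization. Over all genes, 1648 were lower and 1890 higher under trimmed mean scaling, 1601 and 1677 under quantile normalization and 1308 and 2165 under median centring, against 4006 and 847 as deposited; with a library left out, 1676 to 4435 were lower and 361 to 1277 higher. The cause of these changes was not tested.

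The sign of 7 genes that did not pass turned. Under trimmed mean scaling, Adam17 (0.11), Adam1a (0.12), Adamts15 (0.0221) and Adam10 (0.17) turned positive. Under quantile normalization Adam19 (0.0781), Adam17 (0.0570), Adam1a (0.36), Adamtsl3 (0.11), Adamts15 (0.0202) and Adamts8 (0.11) did so, and under median centring Adam17 (0.15), Adam1a (0.23), Adamts15 (0.0764) and Adam10 (0.20). With a library left out, Adam1a ranged from -0.23 to 0.0217 and Adamts15 from -0.58 to 0.39.

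The replicate block (Adamts12 and Adamts14 gained their calls, Adamtsl1 lost its call) rests on shared numbers only: deviations of same-numbered libraries correlated at 0.18, -0.11, 0.15 and -0.03, and not every library correlated best with its own number, so the numbers were not taken as pairs.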
